A study of Mus musculus with 110 samples.

Results

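The comparison concerns a mouse pro-B cell line in which CTCF carries a degron tag, compared with and without indole-3-acetic acid (IAA), an auxin that in cells that express OsTIR1 leads to breakdown of the tagged protein. The members were the full junction libraries titled CTCFdegron with IAA or untreated (NT), taken by title, and lists of off-target junctions were not used. They are 24 of the series' 110 samples, and they hold 442819 of the 3602400 junctions in the 98 full libraries. Each group has 6 replicates, each with an a and a b library, and the replicate was the unit of every test. All of these cells were a v-Abl transformed pro-B line, RAG2 deficient with an Emu-Bcl2 transgene and with the genotype label CTCFdegron. All were nucleofected with RAG2 and treated with the Abl kinase inhibitor STI-571 at 3 µM for 4 days, so the untreated group lacked only IAA. The treated group received 500 µM IAA for 6 h and then throughout the 4 days. The 3 control lines (parental cells, cells with OsTIR1 alone and cells with the CTCF tag alone) had 4 replicates with IAA and 4 without. Their labels give the same doses and times of STI-571 and, in the treated groups, of IAA. The amount of CTCF protein was not measured in these files.

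V(D)J recombination builds an antibody heavy chain gene at Igh by first joining a D segment to a JH segment and then a VH segment to that DJH join. The RAG endonuclease cuts at recombination signal sequences, each a conserved heptamer and nonamer separated by a spacer, from a centre that forms over the JH segments. Chromatin is reeled past that centre by cohesin, and CTCF bound to DNA is known to impede that movement; IGCR1, which lies between the D array and the VH segments, and many proximal VH segments hold CTCF binding elements. v-Abl pro-B lines are known to use mainly the D segments and the VH segments nearest to them.

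LAM-HTGTS V(D)J-seq reads outward from a bait at JH4 and records the prey position to which each bait end was joined. Positions here are those of the deposited files, on chromosome 12 of a hybrid genome of mm9 and another Igh sequence, and mm9 positions are given only where a segment's own sequence matched mm9. Replicates held 21416 to 35133 junctions with IAA and 26375 to 58885 without, and all 24 libraries came from 1 sequencing run. Peaks of junctions defined 171 segments, 146 VH and 25 D, of which a segment is named by symbol where it had 1 clear match in mm9 and otherwise by its position. Ighd2-4 and Ighd2-7 lie in the opposite order in mm9, so their symbols state sequence identity and not place in the array. Replicate 1 lay apart from the other replicates of its group in several measures, and 3 libraries titled IAA, of replicates 4 and 5, have a treatment label that does not mention it. Values are shares of all junctions of a library, averaged over the a and b library and given as mean ± SD over 6 replicates, unless another denominator is named.

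The segments on which the results turn are shown first, read from mm9 on the minus strand, 5′ to 3′, from the coding end into the flank. The heptamer is the best match to CACAGTG that starts within 15 bases of the junction peak. For 3 D segments the whole coding sequence is in lower case, followed by the heptamer in capitals, a spacer of 12 bases and the next 9 bases, the nonamer position, in capitals. Ighd4-1 is the D nearest JH, Ighd1-1 the D at the other end of the main array, and Ighd3-1 a D that lies alone beyond it.
Ighd4-1, chr12:114668706-114668749: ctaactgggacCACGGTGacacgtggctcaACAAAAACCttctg
Ighd1-1, chr12:114720348-114720403: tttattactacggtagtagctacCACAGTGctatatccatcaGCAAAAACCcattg
Ighd3-1, chr12:114763491-114763540: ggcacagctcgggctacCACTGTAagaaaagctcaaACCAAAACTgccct

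For 6 VH segments the last 20 coding bases of the V exon and 100 bases of intergenic flank are shown. The first capitals are the heptamer, the next the 9 bases that follow a spacer of 23 bases, and the last, where present, a match to a CTCF core motif, CC, any 3 bases, AG, any 2 bases and GGC. Ighv5-2, also called VH81X, and Ighv2-2 are the segments that did not rise, Ighv2-3 and Ighv5-6 are their neighbours that did, and Ighv14-2 and Ighv1-67 lie far from the D array.
Ighv5-2, chr12:114816615-114816734: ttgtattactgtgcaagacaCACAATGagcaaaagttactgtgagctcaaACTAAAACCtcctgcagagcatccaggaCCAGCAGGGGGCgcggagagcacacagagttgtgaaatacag
Ighv2-2, chr12:114826378-114826497: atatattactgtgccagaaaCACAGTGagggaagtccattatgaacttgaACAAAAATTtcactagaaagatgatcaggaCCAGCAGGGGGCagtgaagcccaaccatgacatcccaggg
Ighv2-3, chr12:114849295-114849414: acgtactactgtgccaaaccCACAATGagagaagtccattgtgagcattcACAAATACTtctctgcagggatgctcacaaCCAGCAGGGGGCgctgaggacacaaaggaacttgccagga
Ighv5-6, chr12:114863617-114863736: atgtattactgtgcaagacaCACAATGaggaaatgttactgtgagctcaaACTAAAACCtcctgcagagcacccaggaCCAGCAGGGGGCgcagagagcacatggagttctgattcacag
Ighv14-2, chr12:115232580-115232699: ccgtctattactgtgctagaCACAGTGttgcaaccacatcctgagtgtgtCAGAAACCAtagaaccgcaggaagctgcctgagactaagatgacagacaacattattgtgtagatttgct
Ighv1-67, chr12:116842051-116842170: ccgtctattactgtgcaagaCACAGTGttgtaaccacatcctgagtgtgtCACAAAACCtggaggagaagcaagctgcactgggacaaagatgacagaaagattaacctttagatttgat

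The first comparison asked where the JH4 bait was joined. With IAA the VH region rose and the D segments fell. The lowest, median and highest shares of VH junctions were 23.8%, 28.4% and 30.3% with IAA and 2.64%, 3.74% and 6.56% without. Every treated replicate lay above every untreated one. The means were 27.5% ± 2.78 and 4.07% ± 1.37 (SD, n = 6 each), a 6.77-fold difference (exact permutation test, two-sided, p = 0.00216, which is the smallest this design allows; Benjamini-Hochberg adjusted p = 0.00379 over 7 shares). The D segments held 66.3%, 69.3% and 73.6% with IAA against 89.6%, 93.5% and 95.6% without, again with no overlap and with the same p-values (exact permutation test). Shares of a library sum to 100%, so these differences are not independent. The labels do not say whether replicates were separate cultures, so p-values measure only the spread between these samples.

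Outside the segments, the stretch between the D array and the VH region fell from 1.10% ± 0.263 to 0.336% ± 0.0870 and other chromosomes rose from 0.315% ± 0.0817 to 0.818% ± 0.369, without overlap (exact permutation test, adjusted p = 0.00379 each). Chromosome 6, where the Igk light chain locus lies, held 0.171%, 0.192% and 0.682% of junctions with IAA and 0.112%, 0.131% and 0.220% without, and the groups overlapped. The highest value was that of IAA replicate 1, without which the treated mean was 0.199% and not 0.279%, beside an untreated mean of 0.148%. The remaining chromosomes held 0.539% and 0.167%. The JH cluster, the positions between D segments and chromosome 12 outside Igh did not pass, with adjusted p from 0.454 to 0.944 (exact permutation tests).

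In the control lines the share of VH junctions stayed between 2.76% and 5.82% with and without IAA. It was 3.43% ± 0.508 with IAA and 3.72% ± 0.477 without in the line with the tag only, 3.72% ± 0.224 and 4.93% ± 1.06 in the line with OsTIR1 only, and 4.43% ± 0.605 and 4.61% ± 0.918 in the parental line (SD, n = 4 each). The effect in the degron line exceeded theirs by 23.8, 24.7 and 23.7 percentage points (two-sided exact permutation of line labels over 210 arrangements, p = 0.00476 each, the smallest it can give; adjusted p = 0.0159 over 144 tests). The stretch between the D array and the VH region went the other way in the controls. It was higher with IAA in 4 of 4 same-numbered pairs of each control line, by 0.586, 0.421 and 0.801 points, against a change of -0.765 points in the degron line. Those effects also differed (exact permutation, p = 0.00476, adjusted p = 0.0159 for each line). The control libraries came from other sequencing runs than the degron libraries, so line and run cannot be told apart in these comparisons. Parental replicates 1 and 2 were sequenced in run 524 without IAA and in run 526 with it, so there run also goes with treatment.

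**Figure D1:**
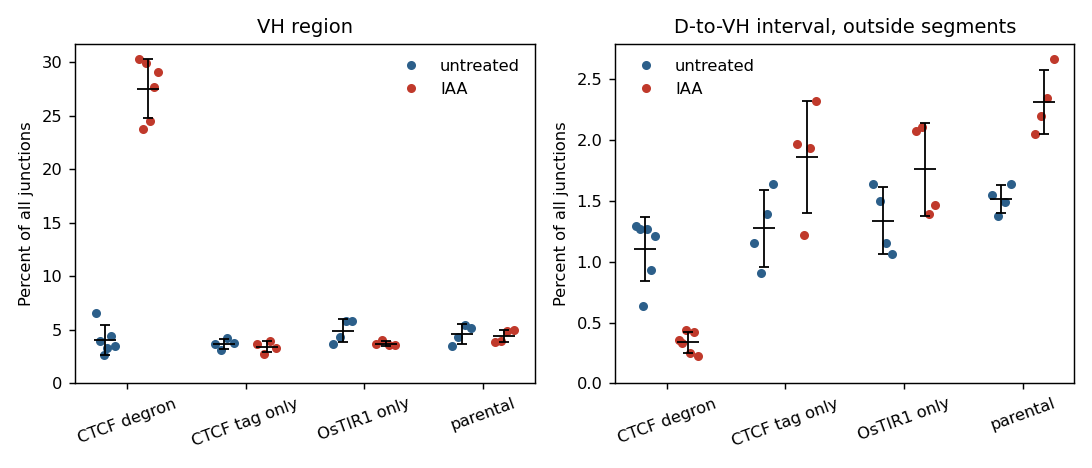
Percent of all junctions in the VH region (left) and between the D array and the VH region outside segments (right), for the CTCF degron line (6 replicates per treatment) and 3 control lines (4 per treatment); each point is a replicate, and bars are mean and SD. The treated degron replicates lie at 23.8% to 30.3% in the VH region, above every other replicate drawn, and at 0.226% to 0.434% in the interval, below every other one.

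The use of D segments shifted from Ighd1-1 to the rest of the array. Ighd1-1, also known as DFL16.1, held 23.1%, 25.3% and 34.2% of all junctions with IAA (lowest, median and highest) and 52.9%, 61.7% and 72.7% without. The groups did not overlap, and the mean fell from 62.3% ± 7.18 to 27.7% ± 4.96 (exact permutation test, p = 0.00216, adjusted p = 0.00462 over 32 D shares). Of D junctions alone, which leaves out the rise of the VH region, Ighd1-1 fell from 66.9% ± 7.54 to 39.6% ± 6.62. It remained the most used D in every replicate of both groups, at 33.2% of D junctions or more.

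Ighd4-1, also known as DQ52 and next to the JH segments, moved the other way. It took 15.0%, 17.7% and 19.7% of D junctions with IAA and 6.67%, 8.43% and 11.4% without. The groups did not overlap, and the mean rose 2.06-fold from 8.58% ± 1.60 to 17.7% ± 2.06 (exact permutation test, adjusted p = 0.00462). Of all junctions Ighd4-1 rose 1.54-fold, with overlapping groups (adjusted p = 0.0115, exact permutation test).

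Of the 16 D segments with at least 10 junctions per replicate on average, 13 rose as a share of D junctions and Ighd1-1 alone fell. The other two, D at 114705399 and D at 114732517, did not pass. Of the 8 segments of the Ighd2 family, which repeat along the middle of the array, 7 rose, by 1.54-fold at D at 114695747 to 2.21-fold at D at 114714725. D at 114714725 went from a mean of 2.72% to one of 6.00% of D junctions without overlap. D at 114719358, which is closest to Ighd1-1 in sequence, rose 1.81-fold to 1.06% ± 0.151 of D junctions. As a share of all junctions it did not pass, with overlapping groups (exact permutation test, adjusted p = 0.0779). Shares of D junctions have a fixed sum, so the fall of Ighd1-1 by itself raises the others together. As shares of all junctions, 8 of the 16 rose, 1 fell and 7 did not pass. Only 13 of the 16 had an untreated mean of 10 junctions or more. The rest, Ighd3-1 among them, met the minimum through the treated group alone, so these counts are a description.

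IAA also moved Ighd1-1 in the control lines, less far. With IAA its share of D junctions fell by 8.34 points in the tag-only line, fell by 6.05 points with OsTIR1 only and fell by 8.34 points in the parental line, where in the degron line it fell by 27.3 points. It was lower with IAA in 4 of 4 pairs of each control line. The difference from the degron line was -19.0, -21.3 and -19.0 points (exact permutation of line labels, p = 0.00476, adjusted p = 0.0159). With treatment labels permuted within lines instead, it did not pass against any of them (adjusted p = 0.151, 0.0937 and 0.126, permutation tests). Ighd4-1 changed by 0.220, 0.0525 and 0.0363 points in the controls against 9.10 points in the degron line (exact permutation of line labels, adjusted p = 0.0159 each). For some D segments the rise as a share of all junctions was as large in the controls. Ighd2-4, as a share of all junctions, rose by 0.589 points in the degron line and was higher by 0.647, 0.705 and 0.646 points with IAA in the controls, in 4 of 4 pairs of each line. D at 114690286 rose by 2.18 points and was higher by 2.07, 2.24 and 2.43 points in the controls. These differences of effects did not pass (exact permutation of line labels, adjusted p from 0.650 to 0.954). Of D junctions, D at 114690286 rose by 4.99 points against 2.26, 2.34 and 2.72 in the controls. That difference passed against all but the parental line (same test, adjusted p = 0.0361, 0.0361 and 0.0686), and against none with treatment labels permuted within lines. Ighd2-4 rose by 1.26 points of D junctions against 0.703, 0.747 and 0.715, which did not pass. Untreated degron cells already used Ighd4-1 at 8.58% of D junctions, above the untreated means of 5.31% to 6.10% in the control lines, a difference that was not tested.

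**Figure D2:**
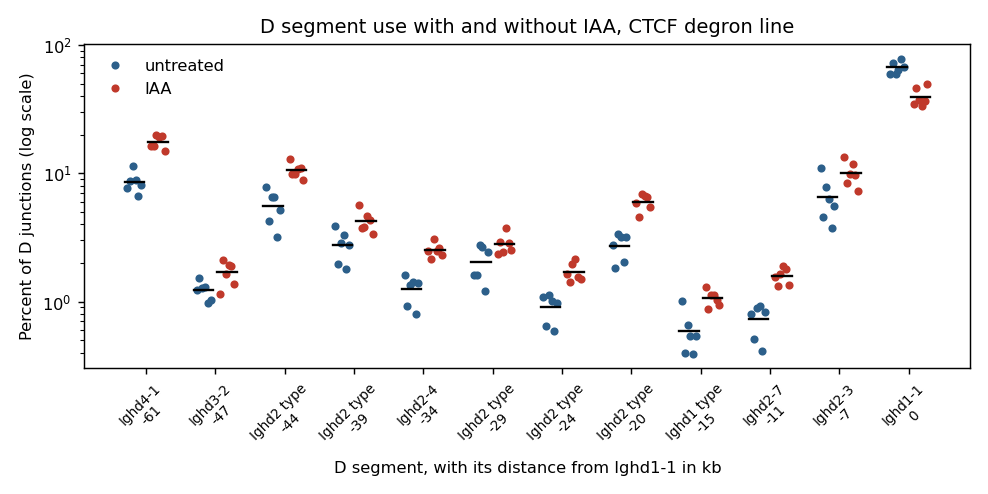
Percent of D junctions (log scale) for 12 D segments in array order, with their distance from Ighd1-1 in kb; points are the 6 replicates per treatment and lines are means. Ighd1-1 fell from 66.9% to 39.6% while Ighd4-1 rose from 8.58% to 17.7%.

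Ighd3-1, printed above, lies 49.5 kb beyond Ighd1-1 in the direction of the VH region, inside the stretch that holds IGCR1. It held 0.0611%, 0.0954% and 0.104% of all junctions with IAA and 0.00166%, 0.00547% and 0.0103% without, from 162 and 14 junctions. Every replicate had a junction there, and no treated replicate overlapped an untreated one. The mean rose from 0.00568% ± 0.00302 to 0.0884% ± 0.0177, 15.6-fold (exact permutation test, p = 0.00216, adjusted p = 0.00462). Its share changed by -0.000390, 0.00107 and 0.00526 points in the control lines, and the effect in the degron line was larger than each (exact permutation of line labels, adjusted p = 0.0159). Its log2 change was 3.85 ± 0.46 (SE, limma). It met the minimum mean of 10 junctions through the treated group alone, so its change is a description.

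Junctions outside segments fell just upstream of Ighd1-1 and rose beyond. In the 5 kb just upstream of Ighd1-1, plus-orientation junctions, the orientation in which D and VH segments are joined here, made up 0.137%, 0.256% and 0.322% of all junctions with IAA and 0.630%, 1.20% and 1.27% without. They fell from 1.08% ± 0.252 to 0.248% ± 0.0759 without overlap (exact permutation test, adjusted p = 0.00722 over 10 shares). In the rest of the stretch up to the VH region they rose 6.22-fold, from 0.0136% to 0.0843%, also without overlap and with the same adjusted p (exact permutation test). The rise was uneven. The kb bins at 48, 49 and 50 kb, around Ighd3-1, held 0.0148%, 0.106% and 0.0136% with IAA. Without IAA they held 0%, 0.00654% and 0.00299%. The bin at 49 kb includes Ighd3-1 itself, at 0.0884% with IAA. No other bin of this rest held more than 0.00651% with IAA.

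A few positions near Ighd1-1 that match no D or VH segment had peaks of junctions of their own, and these fell. The sites 1.03 kb and 1.99 kb upstream, at 114735574 and 114736530, had an exact match in mm9, which is shown on the minus strand. Capitals mark the best match to the heptamer CACAGTG that starts within 15 bases of the peak, in a search that prefers CAC, so that its presence is no finding.
site at 114735574, chr12:114721391-114721430: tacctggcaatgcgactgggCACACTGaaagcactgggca
site at 114736530, chr12:114722347-114722386: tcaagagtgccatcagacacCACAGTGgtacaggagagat
The site at 114735574 held 0.0682%, 0.0815% and 0.146% with IAA and 0.280%, 0.484% and 0.663% without, and its mean fell from 0.478% to 0.0991%. The site at 114736530 fell from 0.200% to 0.0338%, and the site at 114738204, at 3.66 kb, from 0.144% to 0.0345% (exact permutation tests, adjusted p = 0.00361 and 0.00541 over 5 sites). At the latter the groups overlapped, with 0.0106% to 0.0788% with IAA and 0.0748% to 0.397% without, and without untreated replicate 1, the highest, the untreated mean was 0.0932%. A site 1.11 kb on the JH side of Ighd1-1, at 114733437, fell from 0.0603% to 0.0165% (exact permutation test, adjusted p = 0.00361). The site at 114685205, in the JH-side part of the D array, did not pass (adjusted p = 0.805). Sites were kept if they had a mean of at least 10 junctions per replicate over both groups. The 4 sites that fell were higher in the untreated group, which helped them to meet this minimum, so their falls are a description. They fell to 0.169 to 0.273 of their untreated mean, against 0.444 for Ighd1-1. That difference was not tested, and this choice of sites favours it.

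A search of mm9 between Ighd1-1 and Ighv5-2 for that CTCF core on both strands gave 7 matches, and the core is found in 0.756% of 36000 windows of 100 bases. In mm9 the match nearest to Ighd1-1 lies 3.10 kb upstream of it on the minus strand, beyond the site at 1.99 kb. The site at 3.66 kb, a distance in the hybrid genome, had no exact match in mm9. Its place relative to this core was therefore not established. The core is in capitals.
core upstream of Ighd1-1, chr12:114723466-114723508: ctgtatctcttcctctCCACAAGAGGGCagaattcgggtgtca
A match is a description and does not show that CTCF binds there.

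**Figure D3:**
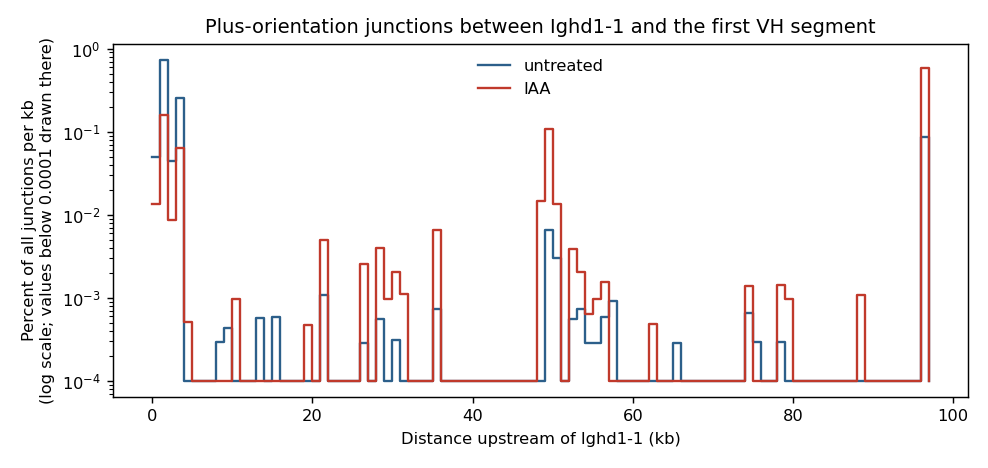
Mean percent of all junctions per kb (log scale, values below 0.0001 drawn at 0.0001) in plus orientation from Ighd1-1 to the first VH segment, for 6 replicates per treatment. The treated line lies below the untreated one in the first kb bins and above it at Ighd3-1, 49.5 kb upstream, and at the first VH segment.

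Among VH segments the rise reached the whole region. Shares of all junctions rose from 2.95% to 18.1% in the first 500 kb from the D-proximal edge, from 0.258% to 2.58% between 500 and 1200 kb, from 0.501% to 5.17% between 1200 and 2000 kb and from 0.359% to 1.72% beyond 2000 kb. The groups did not overlap in any of these bins (exact permutation tests, adjusted p = 0.00487 each over 9 measures). The factors were 6.13, 10.0, 10.3 and 4.79, in that order. Of VH junctions alone, the bin from 500 to 1200 kb rose from 6.61% ± 1.79 to 9.42% ± 0.795 (adjusted p = 0.00779, exact permutation test). The other bins did not pass: the first 500 kb held 65.3% with IAA and 71.1% without, the bin from 1200 to 2000 kb 19.1% and 13.0%, and the bin beyond 2000 kb 6.26% and 9.36%, with adjusted p from 0.131 to 0.284 (exact permutation tests). Without IAA replicate 1, the bin from 1200 to 2000 kb did pass, with a difference of 8.37 points, and without untreated replicate 1 the bin beyond 2000 kb passed, with one of -4.39 points. The bin from 500 to 1200 kb did not pass in b libraries alone, at 2.46 points. The difference of effects in the bin from 500 to 1200 kb passed against the parental and OsTIR1-only lines (adjusted p = 0.0269 each) and not against the tag-only line (adjusted p = 0.0991, exact permutation of line labels). With treatment labels permuted within lines it passed against the parental line (adjusted p = 0.0343) and not against OsTIR1 only (adjusted p = 0.0661, permutation tests). Without IAA, the first 500 kb held 71.1% ± 10.9 of VH junctions in degron cells and 77.8% ± 10.9 in the tag-only line. It held 97.3% ± 2.70 with OsTIR1 only and 95.8% ± 0.822 in parental cells. These differences between untreated lines were not tested.

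Single segments were tested with limma on junctions per segment, with all junctions of a library as the scale. Of 70 segments tested, 62 passed, 88.6%. With IAA 61 were higher, 87.1%, and 1 was lower, Ighd1-1, 1.43%. The shares of 55 of them, 78.6%, did not overlap between groups. Of the 54 VH segments tested 52 were higher, none was lower and 2 did not pass, with a median log2 change of 3.04 against 2.79 over all 70. The other 92 of the 146 VH segments had fewer than 10 junctions per replicate on average and were not tested. Only 24 of the 54 had an untreated mean of 10 junctions or more, and the rest passed the filter through the treated group, so these counts say nothing about the VH segments as a whole. With a scale set by the median of ratios over segments, 30 segments were higher (42.9%) and 17 lower (24.3%), and the median over all tested fell from 2.79 to 0.65. On that scale 49 of the 70 kept the direction of their fitted value. Among segments chosen for naming by rule, 14 D segments and Ighv2-2 turned from a higher to a lower fitted value.

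The 2 VH segments that did not pass were next to each other near the D array, and both carry the CTCF core 58 to 60 bases from the heptamer. Ighv5-2 held 0.371%, 0.522% and 0.704% of all junctions with IAA and 0.348%, 0.475% and 1.41% without. Ighv2-2 held 0.221%, 0.364% and 0.515% with IAA and 0.266%, 0.312% and 0.724% without. Both pairs of groups overlapped, with log2 changes of -0.11 ± 0.27 and 0.04 ± 0.27 (SE; limma, adjusted p = 0.715 and 0.881). As shares of VH junctions they dropped far. Ighv5-2 went from 15.0% ± 4.83 to 1.87% ± 0.390 and Ighv2-2 from 9.25% ± 1.99 to 1.33% ± 0.322, without overlap (log2 changes -2.93 and -2.76, limma with VH junctions as the scale, adjusted p = 1.7e-09 each).

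The neighbours of that pair rose instead, though they hold the same core. Ighv2-3, 39.3 kb from the edge of the VH region, held 3.76%, 5.08% and 6.01% of all junctions with IAA and 0.262%, 0.387% and 0.648% without. Ighv5-6, at 53.6 kb, held 2.46%, 3.02% and 5.05% with IAA and 0.146%, 0.234% and 0.758% without. Neither pair of groups overlapped, and the log2 changes were 3.66 ± 0.22 and 3.57 ± 0.25 (SE; limma, adjusted p = 1.9e-21 and 7.0e-19). Of VH junctions, Ighv2-3 rose from 9.97% to 17.6% and was the most used VH with IAA. VH at 114830805, the VH nearest to the D array, rose from 0.0868% ± 0.0232 to 0.579% ± 0.256 of all junctions (log2 change 2.67, limma, adjusted p = 4.5e-12) and had a log2 change of -0.11 ± 0.30 as a share of VH junctions (adjusted p = 0.857, limma).

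The largest changes were in segments that were close to absent without IAA. VH at 114919648 and VH at 115015512, both closest to Ighv5-9 with 97.1% identity, went from 16 to 912 and from 7 to 427 junctions in all. VH at 114919648 held 0.424%, 0.493% and 0.691% of all junctions with IAA and 0.00182%, 0.00437% and 0.0228% without. Its log2 change was 6.26 ± 0.44, that of VH at 115015512 was 6.18 ± 0.48, and that of Ighv14-2, with 9 untreated junctions, was 5.64 ± 0.46 (SE, limma). VH at 115501873, closest to Ighv14-3, had a log2 change of 4.99 ± 0.44. All 4 met the minimum mean of 10 junctions through the treated group alone, so these values are a description, and the folds depend on the pseudocount of 0.5.

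Farther out, VH at 116240676 was the most used segment beyond the first 500 kb. It held 1.19%, 2.33% and 2.85% of all junctions with IAA and 0.0583%, 0.160% and 0.274% without, with no overlap and a log2 change of 3.88 ± 0.28 (SE; limma, adjusted p = 7.2e-19). Its closest symbol was Ighv1-74 at only 86.5% identity. Ighv15-2 and VH at 116090723, in the same bin, had log2 changes of 4.09 and 4.74. Ighv14-1, at 981 kb, rose from 0.0285% to 0.557%, and VH at 115623228, closest to Ighv11-1, from 0.0230% to 0.294%. Beyond 2000 kb, Ighv1-67 rose from 0.0444% to 0.744% (log2 change 4.06), Ighv8-12 from 0.0366% to 0.193% (2.43) and VH at 117135978 from 0.0244% to 0.122% (2.25). All of these passed (limma, all junctions as the scale), of which VH at 116090723 and VH at 115623228 met the minimum mean through the treated group alone, and the groups of VH at 117135978 overlapped.

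On the scale of VH junctions, 26 of the 54 VH segments changed, 48.1%. There were 18 higher, 33.3%, and 8 lower, 14.8%. Beside Ighv5-2 and Ighv2-2, the lower ones were Ighv1-80, Ighv1-55, Ighv1-47, Ighv8-11, Ighv1-9 and VH at 115453076, with log2 changes of -1.57, -1.55, -1.30, -1.29, -0.93 and -0.98. All 6 rose as shares of all junctions. Of the 7 tested segments beyond 2000 kb, 3 were lower and 1 higher, with a median of -0.51, against a median of 0.21 over the 54. In the bin from 1200 to 2000 kb 4 were higher and 2 lower, with a median of 0.92.

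**Figure D4:**
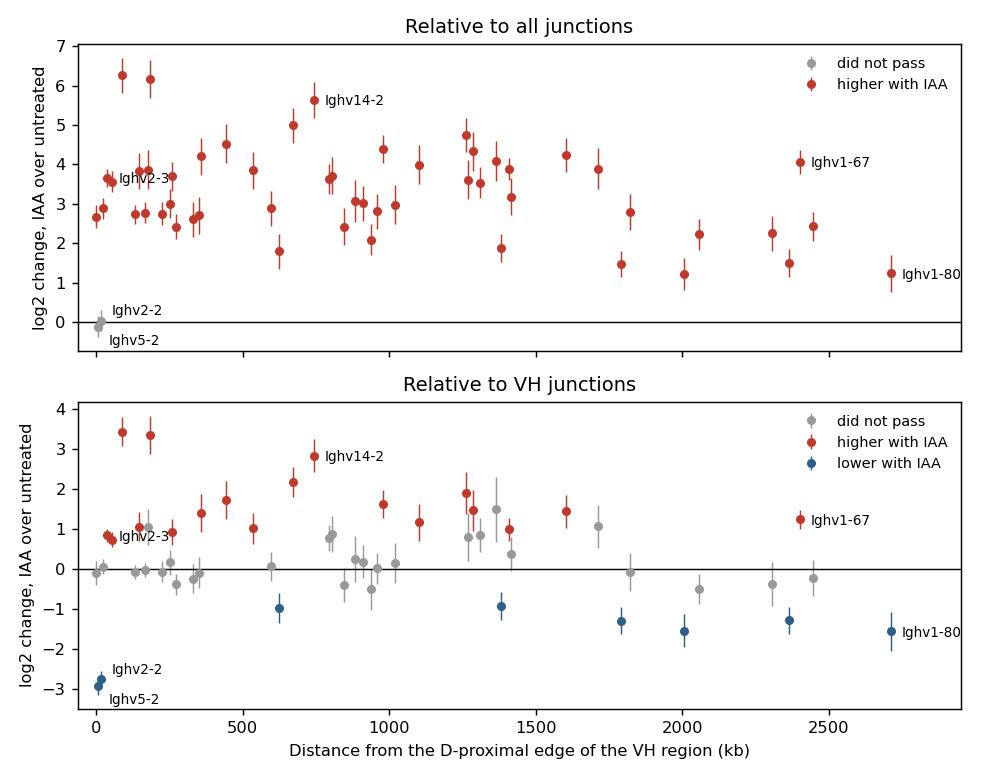
log2 change with IAA of 54 VH segments against distance from the D-proximal edge of the VH region, with all junctions (top) or VH junctions (bottom) as the scale; points are limma estimates from 6 replicates per treatment and bars their SE. Ighv5-2 and Ighv2-2 lie near 0 at the top and at -2.93 and -2.76 at the bottom, and Ighv2-2 also turned negative with a median-of-ratios scale.

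By family, the share of VH junctions rose in 3 of 15 families and fell in none that passed. The Ighv14 family rose from 1.26% to 3.93%, the Ighv11 family from 0.670% to 1.19%, and the Ighv4 family from 0.00736%, a single junction, to 0.0906%, 47 junctions (exact permutation tests, adjusted p = 0.0216 each). The Ighv5 family, the large proximal family, held 43.8% with IAA and 50.9% without (adjusted p = 0.222, exact permutation test). Without IAA replicate 1 it passed, with a difference of -9.20 points. The Ighv2 family, which is also proximal, held 19.8% to 26.7% with IAA and 14.7% to 26.0% without. Ighv1, the largest and mostly distal family, held 10.8%, 20.8% and 22.4% with IAA and 7.31%, 15.6% and 25.8% without, overlapping (adjusted p = 0.741).

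The CTCF core was found within 100 bases of the heptamer in 9 of the 63 VH segments whose flank could be read from mm9. Of the 7 of these that were tested, 5 were higher and 2 did not pass, with a median log2 change of 2.73, and on the scale of VH junctions 2 were higher and 2 lower, with a median of -0.07. Of 54 segments with no core in that window, 19 were tested and all 19 were higher, with a median of 3.61, and on the scale of VH junctions 7 were higher and 5 lower, with a median of 0.84 (limma). Over all VH segments tested, 52 of 54 were higher, and 18 were higher and 8 lower on the scale of VH junctions. An untreated mean of at least 10 junctions was reached by 6 of the 7 segments with the core, 11 of the 19 without it and 24 of all 54, and the rest met the minimum through the treated group alone, so these counts are a description. Of the tested segments with the core, 6 of 7 lay in the first 500 kb, where no segment without it had a readable flank, so the core and distance cannot be told apart.

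Within the VH region, plus-orientation junctions outside any segment rose from 0.0176% to 0.166% of all junctions without overlap (exact permutation test, adjusted p = 0.00722), and their share of VH junctions did not pass (adjusted p = 0.0839, exact permutation test). Junctions in minus orientation fell as a share of VH junctions from 1.79% to 0.758% (exact permutation test, adjusted p = 0.0162) and rose as a share of all junctions (adjusted p = 0.0260). The groups overlapped in the first of these, and that call was lost in a libraries alone, at -0.970 points.

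The reads also hold the D that lies between JH4 and a VH, since VH junctions carried 15.1 bases on average between bait and prey with IAA and 15.3 without. A D was assigned by the longest exact match of at least 8 bases. Such a match was found in 65.3% ± 2.30 of VH junctions with IAA and 69.4% ± 3.95 without (exact permutation test, adjusted p = 0.0985 over 7 measures). Among the matches, Ighd1 made up 39.9% ± 4.89 with IAA and 54.1% ± 12.6 without (adjusted p = 0.0530, exact permutation test), and Ighd2 52.6% and 40.1% (adjusted p = 0.0808). Ighd4 made up 5.30% and 4.11%, with overlapping groups (adjusted p = 0.139, exact permutation test). Ighd4-1 has only 11 coding bases, which leaves little room for a match of 8. Without untreated replicate 1 the share with a match and the Ighd1 share passed, with differences of -5.47 and -17.0 points. The mean length of the match fell from 13.2 to 12.7 bases (adjusted p = 0.0303, exact permutation test). Of Ighd1 and Ighd2 together, a measure added after the values were seen and given as a description, Ighd1 made up 43.2% with IAA and 57.4% without in VH junctions, and 50.6% and 74.9% in D junctions. In all 12 replicates the Ighd1 share was lower in VH junctions than in D junctions.

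**Figure D5:**
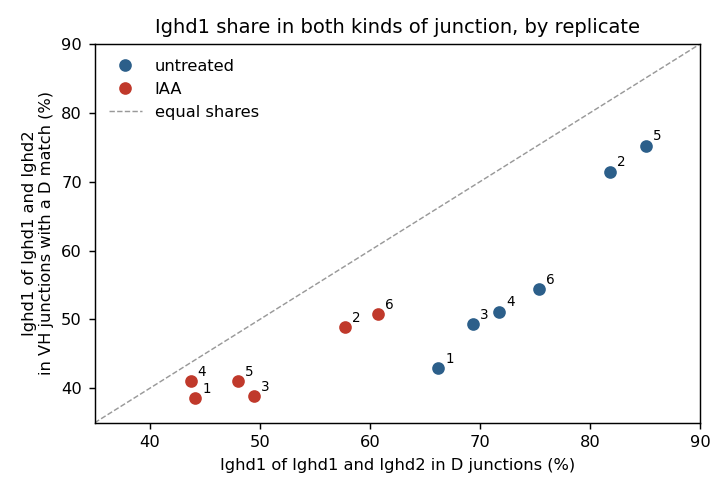
Ighd1 as a percent of Ighd1 and Ighd2 in VH junctions with a D match against the same percent in D junctions, one point per replicate (6 per treatment, numbered) with a dashed line of equal shares. All 12 points lie below the line, and the means were 43.2% and 50.6% with IAA against 57.4% and 74.9% without.

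The structure of the joints themselves did not pass any test. Of 20 measures at D segments, Ighd1-1, Ighd4-1, VH segments and Ighv5-2, none passed after adjustment, and 3 had an unadjusted p under 0.05 (exact permutation tests; 1 by the exact sign-flip test). Ighd1-1 lost 3.98 bases on average from its end with IAA and 3.81 without, and was joined at its untrimmed end in 25.1% ± 1.14 and 27.6% ± 1.93 of junctions (adjusted p = 0.260, exact permutation test). VH segments lost 2.54 and 2.45 bases, and 32.4% and 33.7% were joined untrimmed. The bases between bait and D segments numbered 2.66 ± 0.198 with IAA and 2.33 ± 0.236 without (adjusted p = 0.303, exact permutation test).

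Nor did the spread of use over VH segments. With every replicate thinned to 715 VH junctions, 77.2 segments had a junction with IAA and 79.2 without, and the effective number of segments was 28.0 and 27.3 (exact permutation tests, adjusted p = 0.840 for both; 0 of 2 had an unadjusted p under 0.05). Replicate 1 was the lowest of each group in segments with a junction, at 64.5 with IAA and 60.1 without.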

How the data were processed

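Per the labels, the authors aligned LAM-HTGTS reads from genomic DNA to a hybrid of mm9 and another Igh sequence; the submitters' processing notes name Bowtie2 and mm9, with the version and filters not given in the sources used here. The deposited files hold 1 line per junction with its position and orientation (other values), and no count column, so junctions were tallied here. Positions in a and b libraries differ by 3 bases in opposite directions and were shifted to agree. Every deposited junction was used. A junction within 100 bp of a segment end was assigned to it. Peaks of at least 20 junctions were matched to mm9 V and D segments with blastn 2.17.0, and reference sequences were read from mm9. The members, lists and segments to be named were chosen with earlier results of these data known.

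Groups and replicate numbers came from titles. The a and b libraries of a replicate have the same index and run and differ in the bait, with 2 or 8 bases between fixed flanks, which the labels do not explain. Replicate shares are means of both libraries. Shares were compared by two-sided exact permutation tests with Benjamini-Hochberg adjustment within each family (scipy 1.17.1, Python 3.11.15). Segments with a mean of at least 10 junctions per replicate were tested with limma 3.58.1 in R 4.3.3 (voom weights, a and b summed, all junctions as the scale, pseudocount 0.5, adjusted p under 0.05), which was checked on simulated data. Effects of IAA in the degron and control lines were compared by exact permutation of line labels over same-numbered pairs, though it is open whether the numbers pair the samples. No 2 replicates of a group agreed within sampling noise (chi-square p at most 2.3e-14 over 15 pairs per group). Depth was 21416 to 58885 junctions per replicate; amplified reads without molecular identifiers are not independent molecules, and distinct junctions made up 91.1% to 94.2% with IAA and 77.1% to 89.1% without. Named segments are all tested D segments, the 3 most used VH segments per distance bin, the 4 VH segments with the largest change, every segment called lower, the VH nearest to the D array with a junction in every replicate, and up to 4 tested VH segments that did not pass; others named for the scale of VH junctions were chosen after their values were seen. Alternatives were distinct junctions, single library types, a replicate block, each replicate left out, replicates 4 and 5 with IAA left out, replicate 1 left out, plus orientation only, 2 other scales, a pseudocount of 2, minimum means of 0 and 50, a window of 30 bp and a D match of 10 bases.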

Additional observations from a re-analysis of the deposited data

Results flagged for a closer look

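Replicate 1 stood apart from the other 5 of its group in 13 of the 14 cases in which the gap to the nearest replicate exceeded Dixon's 95% critical value. Chance alone marks about 1 in 20 groups, and both groups of many measures were screened. Several of these measures overlap or share a total, so the 14 cases are not separate signs. With IAA, replicate 1 had 0.682% of junctions on chromosome 6 against at most 0.266% in the others. It had 79.4% of VH junctions in the first 500 kb against at most 64.1%, and in the bin from 1200 to 2000 kb it had 2.35% of all junctions and 7.70% of VH junctions, the others at least 4.98% and 20.4%. Its Ighv1 share of VH junctions was 10.8% and its Ighv5 share 54.2%. It had 13.9 bases between bait and VH prey on average and 17.5% of VH junctions with at most 7 such bases. After thinning it had 64.5 VH segments with a junction, and its effective number of VH segments was 20.5. Without IAA, replicate 1 had 5.71% of all junctions in the first 500 kb against at most 2.70%, 19.0% of VH junctions with at most 7 bases between bait and prey, and 60.1 VH segments with a junction. In the remaining case, replicate 2 with IAA had 0.220% of junctions in plus orientation in the VH region outside segments against at most 0.166%.

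The difference between the effect of IAA in the degron line and in a control line passed in 59 of 144 comparisons (exact permutation of line labels, adjusted p under 0.05), and 41 of the 59 also passed with treatment labels permuted within lines. The 17 given here are those of 6 measures. Differences are in percentage points, degron line minus control, for the tag-only, OsTIR1-only and parental line in that order. They were 23.8, 24.7 and 23.7 for the VH region, and -1.35, -1.19 and -1.57 for the stretch between D and VH. For other chromosomes they were 0.499 against the tag-only and 0.510 against the parental line; the difference from OsTIR1 only did not pass (adjusted p = 0.0686). For Ighd4-1 of D junctions they were 8.88, 9.04 and 9.06, for Ighd1-1 of D junctions -19.0, -21.3 and -19.0, none of which passed with treatment labels permuted within lines (adjusted p = 0.151, 0.0937 and 0.126), and for Ighd3-1 of all junctions 0.0831, 0.0817 and 0.0775.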

How the results depend on the processing

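Over 55 results and their alternatives, 656 of 697 values were counted as unchanged. Such a value kept its side of the threshold and, where it or the main value passed, its direction. A number of segments called was unchanged if it stayed within a set factor of the main number. Same-numbered replicates did not all deviate together (correlations from -0.10 to 0.63 over the 6 pairs), so it is open whether the numbers pair the samples. With the replicate block the smallest sign-flip p is 0.0312, and adjusted p became 0.0547 for the VH region (23.5 points), D segments (-23.2), the D-to-VH interval (-0.765) and other chromosomes (0.503). It became 0.0938 for Ighv14 (2.67) and 0.0625 for plus junctions upstream of Ighd1-1 (-0.829), in the rest of the interval (0.0708) and outside VH segments (0.148) and for minus junctions of VH junctions (-1.03); the bin from 1200 to 2000 kb (6.10 points of VH junctions) then passed, and the limma block kept 61 higher and 1 lower.

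With a libraries only, the bin from 1200 to 2000 kb (6.96), VH junctions with a D match (-5.20) and their Ighd1 share (-14.6) passed and minus junctions (-0.970) did not; b libraries only left the bin from 500 to 1200 kb (2.46) short. Minus junctions also missed the threshold without IAA replicates 4 and 5 (-0.895). With a D match of 10 bases, matches (-5.91) and Ighd1 (-14.4) passed. Permuting treatment labels within lines left the Ighd1-1 differences (-19.0, -21.3 and -19.0) at adjusted p of 0.151, 0.0937 and 0.126.

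Leaving out single replicates, differences ranged from 4.67 to 8.37 for the bin from 1200 to 2000 kb and from -9.20 to -4.30 for Ighv5 (both passed without IAA replicate 1), from -4.39 to -2.18 beyond 2000 kb and from -5.47 to -3.16 for D matches (both passed without untreated replicate 1), from -17.0 to -10.6 for Ighd1 among matches (without untreated replicate 1 or 3) and from 27.6 to 59.2 kb for the median distance (without untreated replicate 2).

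Higher segments numbered 38 and 40 of 48 with a or b libraries only, 134 of 170 with no minimum and 20 of 28 with a minimum of 50, where 10 junctions gave 61 of 70. A median-of-ratios scale gave 30 and 17, and VH junctions as the scale 18 and 8 of 54. With median-of-ratios scaling 49 of 70 segments kept their direction. Among segments chosen for naming by rule, values that turned negative on that scale, from values above 0, were Ighd4-1 (-1.48), Ighd3-2 (-2.11), Ighd2-4 (-1.52), Ighd2-7 (-1.37), Ighd2-3 (-1.85), Ighv2-2 (-2.12) and D at 114690286 (-1.57), 114695747 (-1.90), 114705399 (-2.05), 114708573 (-1.40), 114710077 (-1.61), 114713225 (-0.48), 114714725 (-1.39), 114719358 (-1.63) and 114732517 (-2.07). With VH junctions as the scale 34 of 54 kept their direction. Among those named by rule, VH at 114830805 (-0.11), Ighv2-2 (-2.76), Ighv5-12 (-0.074), VH at 117135978 (-0.39) and Ighv8-12 (-0.23) turned negative. The other segments called lower on that scale, apart from Ighv5-2, turned as well. Apart from the scale and the number of segments tested, the cause was not tested. Depth limits segments with few untreated junctions.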

Other observations

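The a and b libraries of a replicate differed in the share of VH junctions, a comparison chosen after the values were seen. It was higher in the a library in 12 of 12 replicates, at 29.1% against 26.0% with IAA and 4.68% against 3.45% without (two-sided exact sign-flip test, p = 0.000488, adjusted p = 0.00317 over 13 measures). The difference was 3.17 points with IAA and 1.22 points without, and the ratio of a to b was 1.12 and 1.35. Other chromosomes were lower in the a library in 10 of 12 replicates (adjusted p = 0.0127, exact sign-flip test). Ighd1-1 took 0.795 points more of D junctions in a libraries, in 11 of 12 replicates (adjusted p = 0.0203, exact sign-flip test).

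The median distance of VH junctions from the D-proximal edge was 136 kb with IAA and 96.6 kb without, with overlapping groups of 92.7 to 169 kb and 39.3 to 197 kb (exact permutation test, adjusted p = 0.217).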
